A study of Mus musculus with 8 samples.

Results

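The 10 genes described here encode the machinery that presents peptides on MHC class I. They are the heavy chains H2-K1 and H2-D1, the light chain B2m, the peptide transporter subunits Tap1 and Tap2, the loading factor Tapbp, the catalytic subunits of the immunoproteasome Psmb8, Psmb9 and Psmb10, and the transcriptional activator Nlrc5. They were chosen by symbol and role, with earlier results of these data known, and all 10 were found among the 55536 genes of the count tables by their Ensembl identifiers (GRCm38). All 10 also belonged to the 11189 genes that passed the filter on low counts, and all 10 were above 40 CPM, the count scaled to the size of its library, in every library, so that none passed through the level of a single group.

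The libraries came from CD8 T cells of C57BL/6 mice that carry the OT-1 T cell receptor transgene on a Rag-1KO background. Lymph node cells were activated for 2 days with 100 nM of the ovalbumin peptide SIINFEKL, washed and grown for 2 days in 20 ng/ml IL-2. GC7-treated cells (4 libraries) received 10 µM GC7, a spermidine analogue that inhibits deoxyhypusine synthase and so the hypusination of eIF5a, during the IL-2 culture, and mock-treated cells (4 libraries) received the acetic acid vehicle. All 8 libraries therefore share the transgene, the peptide and the cytokine. No library of naïve cells or of Eif5a KO cells was analysed here, and the inhibitor was the only means of lowering hypusination in these libraries. The study reports that GC7 differed in phenotype from Dhps knockout and infers effects of the drug beyond eIF5a. Effects through hypusination and through other targets of GC7 cannot be told apart in these libraries.

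A class I molecule consists of a heavy chain, which holds the peptide, and β2-microglobulin. Its peptides are cut from proteins by the proteasome, carried into the endoplasmic reticulum by the TAP1-TAP2 transporter and loaded with the help of tapasin, the product of Tapbp. Interferon γ exchanges the catalytic subunits of the constitutive proteasome for PSMB8, PSMB9 and PSMB10, and acts on heavy chain, light chain, transporter and immunoproteasome genes through IRF1 and NLRC5. In C57BL/6 mice, the product of H2-K1 is H-2Kb, the molecule that presents SIINFEKL to OT-1 cells. T cells carry class I on their own surface, like nearly all nucleated cells.

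Total counts lay between 17528776 and 25284730 per library. All 10 CD8 T cell markers were tested, of which 2 rose and 6 fell, where 23% of all tested genes rose and 23.5% fell. Their summed levels were 5089 to 5965 CPM in mock-treated and 4256 to 4608 CPM in GC7-treated libraries. The B cell list was lower in GC7-treated libraries (457 to 572 against 268 to 293 CPM in sum), as were the dendritic cell and macrophage list (12.6 to 16.4 against 6.84 to 10.0 CPM) and the stromal list (51.9 to 56.6 against 30.4 to 32.5 CPM). Most genes of these lists had at most 10 counts in every library (5 of 8, 8 of 10 and 4 of 7), among them Ms4a1, Itgax, Csf1r, Adgre1, Col3a1 and Lyve1. The sums were carried by Ighm, the immunoglobulin μ heavy chain gene (490 to 274 CPM on average), by Xcr1 (5.11 to 0.628 CPM) with Cd68 (8.94 to 7.37 CPM), and by Pecam1 (53.2 to 30.5 CPM), and Cd79b went from 7.45 to 4.39 CPM. The part of these lists in the results below was not tested. Mock replicate 2 stood apart from the other mock libraries. Its chi-square distance to them was 32.2 to 35.6 per gene against 4.52 to 8.76 among the other 3, it was the highest mock library for 9 of the 10 genes and the lowest for Nlrc5, and the folds without it are therefore given below. GC7 replicate 3 stood apart from its group as well, at 14 to 22.9 against 2.60 to 6.69 among the other GC7 libraries.

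Promoters of the class I chains are shown first because the heavy chains H2-K1 and H2-D1 have closely related promoters, while H2-K1 passed the test on its mRNA and H2-D1 did not. The windows run from 250 bases before to 50 bases after the annotated start and were taken from RefSeq (GRCm38.p6), where 8 of the 10 genes were matched, all except Tap2 and Nlrc5. The motifs, 5 in number, were searched on both strands, and every match is in capitals. They were TGACG (the core of a CRE-like or X2 box), CCAAT (the Y box), GAANNGAAA and GAAANNGAA (spacings found in interferon response elements) and GGGATTCCC (an NF-κB-type site). The last pair were first searched with 1 more base or 2, and shortened afterwards, with the same genes of the set matched. No matches in the windows below overlap each other.
H2-K1, chr17:34000298-34000597, minus strand: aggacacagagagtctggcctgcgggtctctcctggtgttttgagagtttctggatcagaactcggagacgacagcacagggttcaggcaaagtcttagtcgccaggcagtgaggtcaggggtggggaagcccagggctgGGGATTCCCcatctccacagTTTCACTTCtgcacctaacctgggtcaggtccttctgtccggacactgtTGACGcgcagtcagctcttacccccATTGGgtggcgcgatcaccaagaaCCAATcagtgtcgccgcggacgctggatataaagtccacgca
H2-D1, chr17:35262844-35263143, plus strand: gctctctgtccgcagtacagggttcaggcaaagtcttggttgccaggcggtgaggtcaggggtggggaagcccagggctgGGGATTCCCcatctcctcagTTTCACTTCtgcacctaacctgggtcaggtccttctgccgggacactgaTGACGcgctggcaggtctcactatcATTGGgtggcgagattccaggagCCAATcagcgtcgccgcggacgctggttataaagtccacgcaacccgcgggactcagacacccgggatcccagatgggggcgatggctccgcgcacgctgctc
B2m, chr2:122147437-122147736, plus strand: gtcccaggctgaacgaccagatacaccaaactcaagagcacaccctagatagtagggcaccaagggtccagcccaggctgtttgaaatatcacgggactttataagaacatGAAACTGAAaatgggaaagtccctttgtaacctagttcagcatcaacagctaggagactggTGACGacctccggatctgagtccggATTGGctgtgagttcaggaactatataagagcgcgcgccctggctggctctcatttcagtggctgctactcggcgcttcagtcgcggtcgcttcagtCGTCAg
Tap1, chr17:34187306-34187605, plus strand: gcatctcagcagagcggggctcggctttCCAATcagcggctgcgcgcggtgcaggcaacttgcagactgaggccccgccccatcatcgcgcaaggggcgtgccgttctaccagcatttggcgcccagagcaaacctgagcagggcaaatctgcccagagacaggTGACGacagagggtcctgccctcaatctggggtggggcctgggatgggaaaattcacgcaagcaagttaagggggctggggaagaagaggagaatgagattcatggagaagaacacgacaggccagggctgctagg

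H2-K1 and H2-D1 carried the same motifs in the same order, the NF-κB-type site, the interferon-type element, TGACG, and CCAAT on each strand. Their windows matched at 211 of 239 aligned bases (88.3% identity). H2-K1 has 2 annotated starts, of which the window printed belongs to the first, and its NF-κB-type site began 110 and 124 bases before them. In H2-D1 it began 170 bases before the start. B2m held GAAANNGAA, TGACG on each strand and CCAAT. The window of Psmb9, which lies on the opposite strand, shares 275 of its 300 bases with that of Tap1, so the pair start from a common stretch that holds TGACG and CCAAT. The window of Tapbp held CCAAT at 2 places, and those of Psmb8 and Psmb10 held none of these letters. Of all 32851 promoter windows, 20.8% held TGACG, 37.4% CCAAT, 7.52% GAANNGAAA, 8.56% GAAANNGAA and 0.353% GGGATTCCC. A match is a description of the letters and not a binding site.

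The question put to the counts was whether GC7 treatment changed the mRNA of these genes. By edgeR's quasi-likelihood test with adjustment over all tested genes, 3 of the 10 rose (Nlrc5, H2-K1 and B2m), 1 fell (Psmb8) and 6 did not pass an adjusted p of 0.01. Of all tested genes, 46.6% passed in either direction, 23% upwards and 23.5% downwards, so the 4 calls among 10 genes are close to the background. None of the 10 also changed by more than 2-fold, against 8.48% of all genes. The 4 libraries of one group lay wholly above those of the other for 6 of the 10 genes, against 55.6% of all genes. The median log2 fold change of the 10 was 0.06, beside 0.02 for all tested genes, and the single values ran from -0.33 for Psmb8 to 0.82 for Nlrc5. Without mock replicate 2, 4 of the 10 rose and 1 fell, and without GC7 replicate 3, 4 rose and 0 fell. In the latter case Nlrc5 (0.80), H2-K1 (0.37) and B2m (0.29) kept their calls, Tapbp gained one (0.26) and Psmb8 lost it (-0.31, adjusted p = 0.0151 by edgeR), while the other 5 ran from -0.27 for Psmb10 to 0.10 for Tap1 without passing. In bulk RNA, fewer cells of a type and less RNA per cell cannot be told apart.

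**Figure D1:**
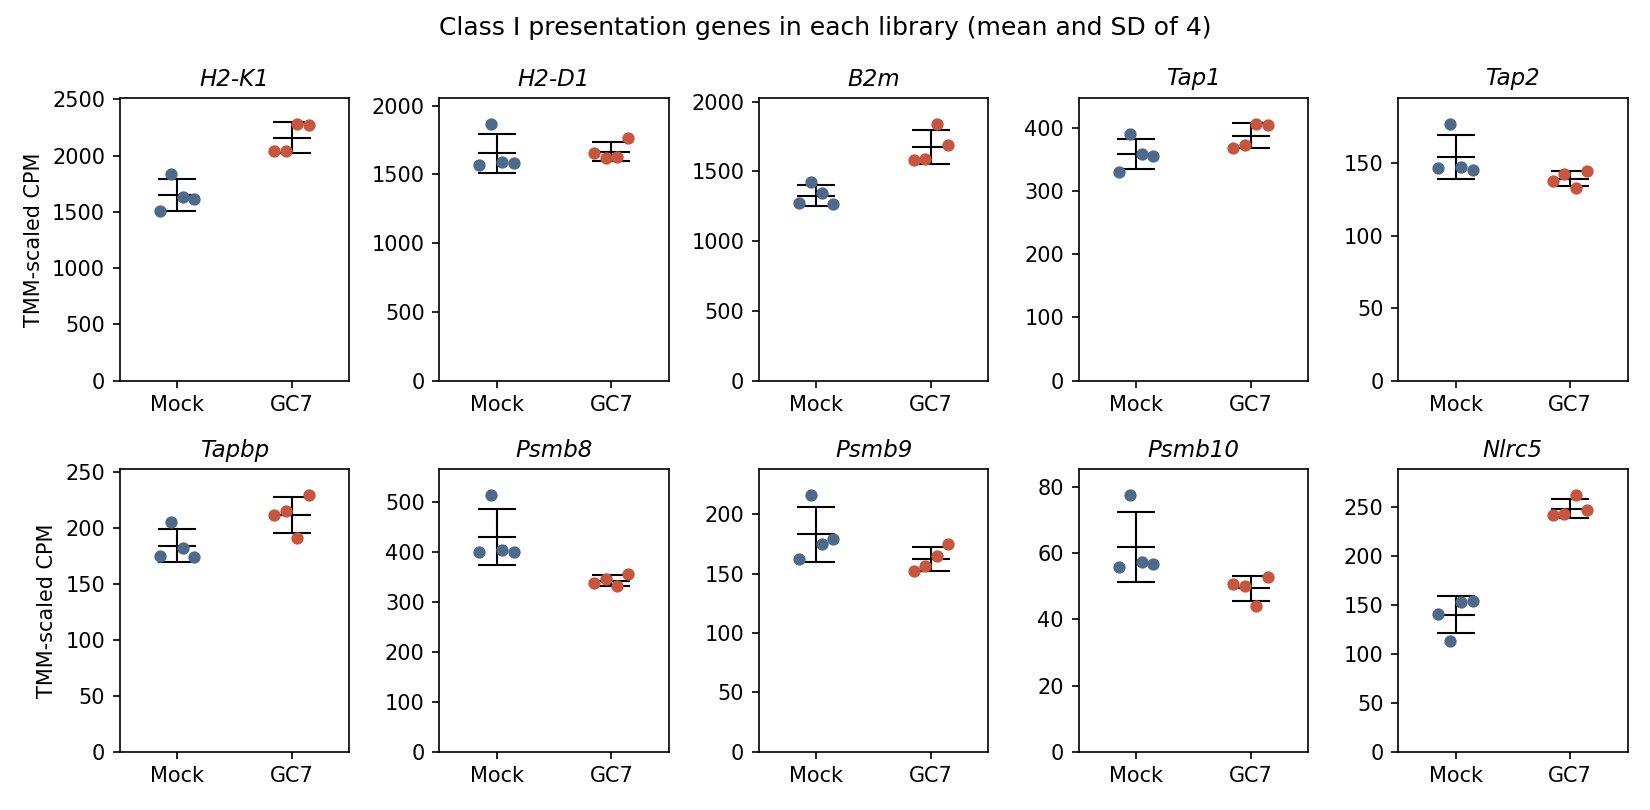
TMM-scaled CPM of each gene in the 4 mock-treated (blue) and 4 GC7-treated (red) libraries, with the mean and SD as black bars and every axis starting at 0. All 4 GC7 libraries lie above all mock libraries for H2-K1, B2m and Nlrc5 and below them for Tap2, Psmb8 and Psmb10.

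**Figure D2:**
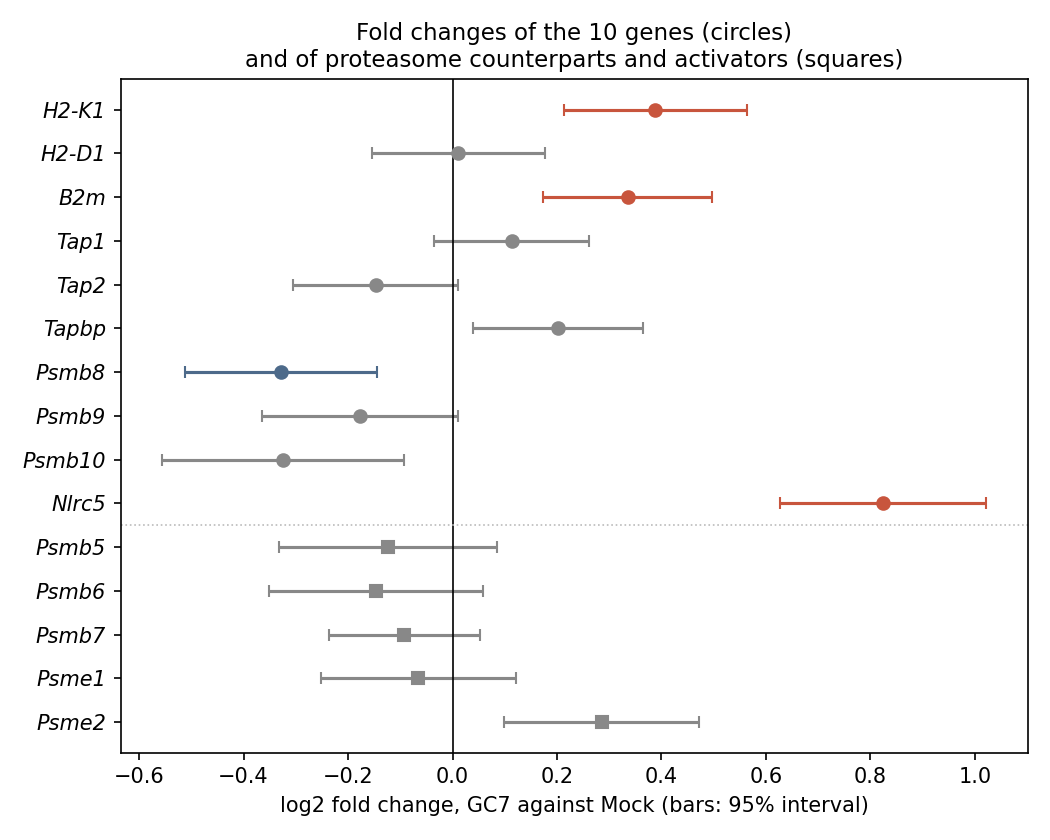
Log2 fold changes, GC7 against Mock, with 95% intervals, for the 10 genes (circles) and for the constitutive subunits Psmb5, Psmb6 and Psmb7 and the activators Psme1 and Psme2 (squares); red and blue mark an adjusted p under 0.01, higher and lower, and grey the rest. Nlrc5 at 0.82 stands furthest from 0, and Psmb8 at -0.33 is the only coloured decrease.

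Nlrc5 (ENSMUSG00000074151, chr8:94434356-94527272, GRCm38 as for all genes below) encodes the NOD-like receptor that acts in the nucleus as the activator of class I genes. Its level was 141, 113, 152 and 154 CPM in mock replicates 1 to 4 and 241, 242, 262 and 246 CPM in GC7 replicates 1 to 4. All GC7 libraries were well above all mock libraries, and mock replicate 2 was the lowest. Nlrc5 rose 1.77-fold (log2 fold change 0.82, SE 0.091, adjusted p = 8.88e-06 by edgeR), and it was called in all 15 alternative analyses. Without mock replicate 2 its log2 fold change was 0.73. A non-coding gene on the opposite strand, 9330175E14Rik, shares 78 exon bases with Nlrc5 and also rose, from 16.2 ± 1.54 to 32.3 ± 3.37 CPM (SD, n = 4 each, log2 fold change 0.99, adjusted p = 2.89e-06 by edgeR). Whether the counting used strand is not given in the sources used here, so reads from the shared stretch cannot be assigned to either gene.

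The tested genes whose pattern over the 8 libraries lay closest to Nlrc5 were Tbc1d16, Hdgfl3, Atxn2, Uvssa and Brpf3. Closeness was the root mean square difference of centred log2 CPM, and it was 0.050 for Tbc1d16 and 0.058 for Brpf3. None of these 5 is on the lists of class I or interferon genes used here.

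H2-K1 (ENSMUSG00000061232, chr17:33996017-34000347), the heavy chain of H-2Kb, stood at 1506, 1842, 1636 and 1616 CPM in mock-treated cells and at 2041, 2038, 2284 and 2275 CPM in GC7-treated cells. The groups did not overlap, although mock replicate 2 came close to the lower GC7 libraries. H2-K1 rose by 30.9% (log2 fold change 0.39, SE 0.080, adjusted p = 0.00126 by edgeR) and was called in all 15 alternatives. Without mock replicate 2 the log2 fold change was 0.44.

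H2-D1 (ENSMUSG00000073411, chr17:35262730-35267499), the other classical heavy chain of these mice, stood at 1568, 1869, 1590 and 1583 CPM in mock-treated and at 1655, 1616, 1624 and 1766 CPM in GC7-treated cells. The GC7 libraries lay within the mock range. No change was detected (log2 fold change 0.01, 95% interval -0.15 to 0.18, adjusted p = 0.908 by edgeR), and the value without mock replicate 2 was 0.07. The sign of this value turned negative when mock replicate 1, 3 or 4 or GC7 replicate 4 was left out, the lowest being -0.02.

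The log2 ratio of H2-K1 to H2-D1 within a library was -0.06, -0.02, 0.04 and 0.03 in mock-treated cells and 0.30, 0.33, 0.49 and 0.37 in GC7-treated cells. The mock libraries lay around equal counts, and all GC7 libraries leaned towards H2-K1, by 0.38 more on average. This ratio was chosen after the values of the genes were seen and is given without a test. In 100-base windows of their transcripts, 0.957% of those of H2-K1 and 3.59% of those of H2-D1 also occur in another gene, foremost H2-Q10 for H2-K1 and H2-Q1 for H2-D1.

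B2m (ENSMUSG00000060802, chr2:122147686-122153083), the light chain shared by all class I molecules, stood at 1275, 1423, 1346 and 1266 CPM in mock-treated and at 1581, 1588, 1843 and 1686 CPM in GC7-treated cells. The groups did not overlap. B2m rose by 26.1% (log2 fold change 0.34, SE 0.074, adjusted p = 0.00204 by edgeR), and its log2 fold change was 0.37 without mock replicate 2. Its adjusted p was 0.0115 without mock replicate 1 and 0.0113 without mock replicate 4, and the call was kept in the other 13 alternatives. No 100-base window of its transcripts occurred in another gene.

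The log2 ratio of B2m to the sum of H2-K1 and H2-D1 was -1.27, -1.38, -1.26 and -1.34 in mock-treated and -1.22, -1.20, -1.08 and -1.26 in GC7-treated cells. All GC7 libraries were above all mock libraries, by a mean of 0.12 (two-sided exact permutation test, p = 0.0286, the smallest that 4 against 4 libraries allow). The margin at the edge was thin, with -1.2603 in GC7 replicate 4 and -1.2611 in mock replicate 3. After adjustment over the 4 ratios tested, p was 0.0571, so the ratio did not pass 0.05.

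Near-identical heavy chain genes can share reads, so the counts of 20 class I heavy chain genes of the H2 family were also added to a single row. The sum was 4505, 5481, 4912 and 4803 CPM in mock-treated and 5497, 5369, 5980 and 6087 CPM in GC7-treated cells. Mock replicate 2 lay inside the GC7 range. The summed heavy chains did not pass the threshold (log2 fold change 0.22, SE 0.087, adjusted p = 0.0445 by edgeR), but passed without mock replicate 2 (0.27, adjusted p = 0.00393).

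H2-K1 made up 33.5% ± 0.366 of these counts in mock-treated and 37.6% ± 0.522 in GC7-treated cells (SD, n = 4 each). The share of H2-D1 went the other way, from 33.6% ± 1.21 to 29.1% ± 1.41. The non-classical H2-Q7 held 14.3% in both groups. The shares are parts of a whole and were not tested.

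**Figure D3:**
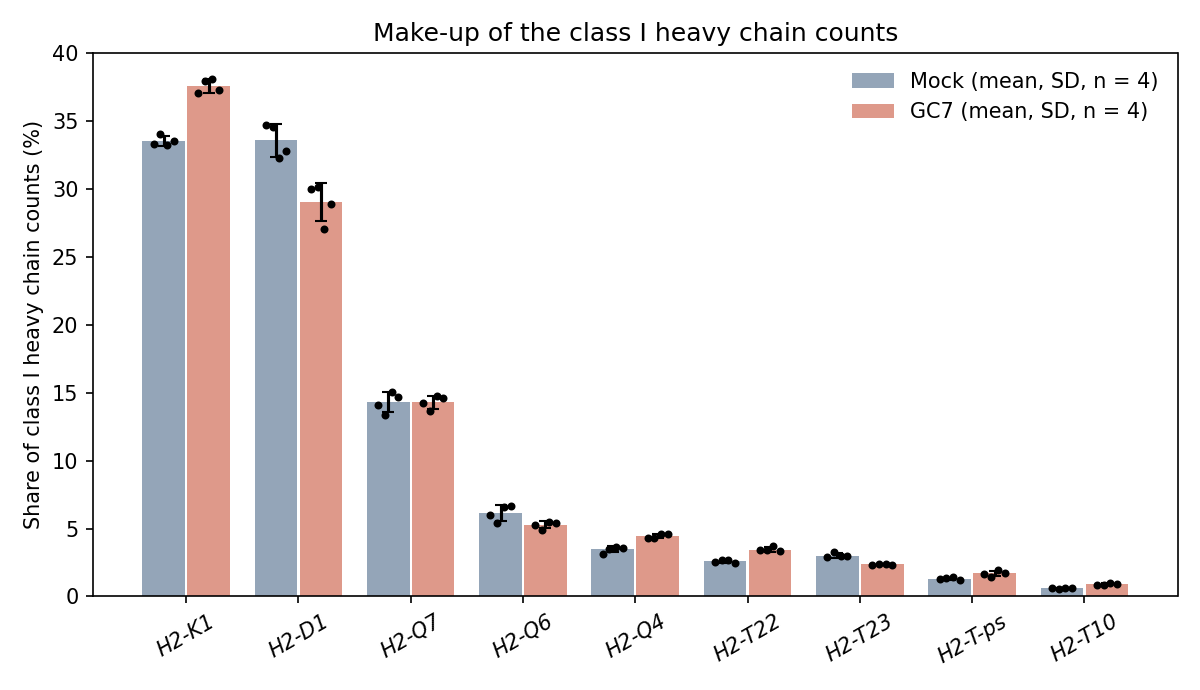
Share of the summed class I heavy chain counts, in percent, taken by the 9 most abundant genes in mock-treated (blue) and GC7-treated (red) cells; bars are means with SD (n = 4) and points are libraries. H2-K1 goes from 33.5% to 37.6% while H2-D1 goes from 33.6% to 29.1%.

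Of 24 other class I heavy chain and class I-like genes, 13 were tested. Among the 13, 4 rose (H2-Q4, H2-T10, H2-T22 and H2-T-ps) and 2 fell (H2-Q2 and H2-Q10), with a median log2 fold change of 0.01. In either direction 46.2% passed, against 46.6% of all tested genes. In the gene annotation, H2-T10 is a polymorphic pseudogene and H2-T-ps an unprocessed pseudogene. H2-T10 stood at 26.7 to 31.3 CPM in mock-treated and 46.7 to 57.6 CPM in GC7-treated cells (log2 fold change 0.85, adjusted p = 4.52e-06 by edgeR). H2-T22, a close relative of H2-T10 and a ligand of some γδ T cell receptors, rose with a log2 fold change of 0.63 (adjusted p = 6.67e-05 by edgeR). The counts of both are uncertain, since 28.1% of the windows of H2-T10 and 31.5% of those of H2-T22 occur in another gene. H2-T10 shares 832 windows with BC023719, H2-T22 shares 905 with A930015D03Rik, and the pair share 261 with each other.

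H2-Q2 was low in GC7-treated cells. It had 89, 118, 114 and 91 counts in mock-treated and 7, 7, 6 and 8 counts in GC7-treated libraries. It passed the filter only through the mock libraries, so these counts are a description and the count of 2 that fell includes it. H2-Q10, a secreted class I protein best known from liver, fell from 23.3 ± 1.57 to 11.1 ± 2.40 CPM (SD, n = 4 each, log2 fold change -1.07, adjusted p = 2.75e-05 by edgeR). Its counts are uncertain too, since 8.01% of its windows occur in another gene, 270 of them in the more abundant H2-Q7. For H2-Q4, counted above as higher, that share was 14.1%.

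Tap1 (ENSMUSG00000037321, chr17:34187553-34197225), a subunit of the peptide transporter, stood at 330, 389, 358 and 355 CPM in mock-treated and 368, 372, 406 and 404 CPM in GC7-treated cells. Mock replicate 2 lay inside the GC7 range and the other mock libraries below it. The change did not pass the test (log2 fold change 0.11, 95% interval -0.03 to 0.26, adjusted p = 0.171 by edgeR). It was 0.15 without mock replicate 2, 0.065 without mock replicate 1 (adjusted p = 0.472) and 0.21 with library totals (adjusted p = 0.0110).

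Tap2 (ENSMUSG00000024339, chr17:34203527-34216321), the partner of Tap1 in the transporter, stood at 147, 177, 147 and 145 CPM in mock-treated and 137, 143, 133 and 144 CPM in GC7-treated cells. All GC7 libraries lay below all mock libraries, by little at the edge. The test was not passed (log2 fold change -0.15, 95% interval -0.30 to 0.01, adjusted p = 0.0991 by edgeR), and the value was -0.08 without mock replicate 2 and -0.05 with library totals.

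The log2 ratio of Tap1 to Tap2 ran from 1.13 to 1.28 in mock-treated and from 1.38 to 1.61 in GC7-treated cells, without overlap and with a mean difference of 0.26. This ratio, too, is given without a test, since the pair was chosen after the values were seen. The exons of Tap1 share 212 bases with those of Psmb9 on the opposite strand.

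Tapbp (ENSMUSG00000024308, chr17:33915899-33929292), which encodes tapasin, stood at 175, 206, 182 and 174 CPM in mock-treated and 212, 216, 191 and 230 CPM in GC7-treated cells. GC7 replicate 3 fell among the mock libraries. The test was not passed (log2 fold change 0.20, SE 0.075, adjusted p = 0.0346 by edgeR), but was passed without mock replicate 2 (0.25, adjusted p = 0.00348), without GC7 replicate 3 (0.26, adjusted p = 0.00918) and with library totals in place of TMM factors (0.30, adjusted p = 0.00304). Tapbp shares 149 exon bases on the same strand with Zbtb22, which had a log2 fold change of -0.20 (adjusted p = 0.0201 by edgeR).

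A list of 13 further genes that trim peptides or fold and load class I in the endoplasmic reticulum was tested in full. Among them 4 rose (Canx, Tapbpl, Erap1 and Uggt1), 2 fell (P4hb and Npepps) and 7 did not pass, with a median log2 fold change of 0.05. In either direction 46.2% passed, against 46.6% of all tested genes. Erap1, the aminopeptidase that trims peptides to class I length, stood at 57.2 to 73.2 CPM in mock-treated and 104 to 112 CPM in GC7-treated cells (log2 fold change 0.70, adjusted p = 8.51e-06 by edgeR). Uggt1, the glucosyltransferase that checks glycoprotein folding, rose less (0.39, adjusted p = 0.00125 by edgeR). P4hb, the main protein disulphide isomerase, fell from 572 to 623 CPM in mock-treated to 329 to 389 CPM in GC7-treated cells (log2 fold change -0.70, adjusted p = 3.09e-06 by edgeR). Npepps, a cytosolic aminopeptidase, also fell (-0.45, adjusted p = 2.41e-05 by edgeR).

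The 3 catalytic immunosubunits all had lower values in GC7-treated cells, and 1 of them passed the test. Psmb8 (ENSMUSG00000024338, chr17:34197721-34201454), which encodes the chymotrypsin-like subunit, stood at 399, 513, 404 and 399 CPM in mock-treated and 337, 345, 331 and 355 CPM in GC7-treated cells. The groups did not overlap, and mock replicate 2 was far above the other 3 mock libraries. Psmb8 fell by 20.3% (log2 fold change -0.33, SE 0.084, adjusted p = 0.00517 by edgeR), and without mock replicate 2 by 0.23 on the log2 scale (adjusted p = 0.00109). The call was lost when any of the 4 GC7 libraries was left out, with log2 fold changes between -0.34 and -0.31 and adjusted p between 0.0121 and 0.0203, and with library totals (-0.23, adjusted p = 0.0182). The windows that Psmb8 shares with another gene all lie in Gm20496, an antisense gene with 0 counts in every library.

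Psmb9 (ENSMUSG00000096727, chr17:34181987-34187764), which encodes the subunit that replaces PSMB6, stood at 162, 216, 175 and 179 CPM in mock-treated and 152, 156, 165 and 175 CPM in GC7-treated cells. The groups overlapped. The test was not passed (log2 fold change -0.18, 95% interval -0.37 to 0.01, adjusted p = 0.0954 by edgeR), and the value was -0.09 without mock replicate 2 and -0.08 with library totals.

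Psmb10 (ENSMUSG00000031897, chr8:105935735-105938444), which encodes the subunit that replaces PSMB7, stood at 55.8, 77.6, 57.3 and 56.7 CPM in mock-treated and 50.6, 50.1, 43.9 and 52.9 CPM in GC7-treated cells. All GC7 libraries were below all mock libraries. The log2 fold change of -0.32 (SE 0.106) did not pass with edgeR (adjusted p = 0.0193), while it passed with DESeq2 (adjusted p = 0.00919) and without a filter on low counts (adjusted p = 0.000587). Without mock replicate 2 it was -0.20.

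Each immunosubunit was then set against the constitutive subunit whose place it takes. The log2 ratio of Psmb8 to Psmb5 was 2.34, 2.43, 2.50 and 2.47 in mock-treated and 2.14, 2.16, 2.37 and 2.26 in GC7-treated cells, a mean difference of -0.20 with 1 GC7 library inside the mock range (two-sided exact permutation test, p = 0.0571). The log2 ratio of Psmb10 to Psmb7 was -0.79, -0.51, -0.67 and -0.75 in mock-treated and -0.86, -0.82, -1.10 and -0.83 in GC7-treated cells, lower in every GC7 library than in every mock library, with a mean difference of -0.22 (exact permutation p = 0.0286). For Psmb9 to Psmb6 the difference was -0.04 (exact permutation p = 0.543), and with a library left out it ran from -0.068 to -0.0075. Adjusted over the 4 ratios, p was 0.0762, 0.0571 and 0.543 in the order given, so none passed 0.05.

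The constitutive counterparts did not pass the test, with log2 fold changes of -0.12 for Psmb5, -0.15 for Psmb6 and -0.09 for Psmb7 (adjusted p = 0.287, 0.201 and 0.253 by edgeR). Without mock replicate 2 these values were -0.028, -0.031 and -0.038, and with library totals -0.027, -0.049 and 0.0034. Of all 14 constitutive 20S subunit genes, none rose, 1 fell (Psma6, log2 fold change -0.23, adjusted p = 0.00573 by edgeR) and 13 did not pass. Their values ranged from -0.23 to 0.17, with a median of -0.09. In either direction, 46.6% of all tested genes passed, against 7.14% of these 14. At an unadjusted p under 0.05, 1 of them was higher and 3 were lower, and 0 rose with DESeq2 or limma-voom. Psma6 lost its call in 9 of 15 alternatives, among them each GC7 library left out and mock replicate 1 or 4 left out, at adjusted p of up to 0.0482.

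Among 10 proteasome activator and assembly genes, 2 rose and 2 fell, or 40% in either direction against 46.6% of all tested genes. Psme1 and Psme2 encode the interferon-inducible PA28 activator, which opens the proteasome, and neither passed. Psme1 had a log2 fold change of -0.07 (adjusted p = 0.527 by edgeR), which turned positive without mock replicate 2 (0.03) and with library totals (0.03). Psme2 had 0.29 (adjusted p = 0.0122 by edgeR), and passed in 5 of 15 alternatives, without mock replicate 2 (0.39, adjusted p = 1.33e-05), with library totals (0.38, adjusted p = 0.00104), with DESeq2 (adjusted p = 0.00652), with limma-voom (adjusted p = 0.00971) and without a filter (adjusted p = 0.00198). The nuclear activators moved in opposite directions. Psme3 rose (0.35, adjusted p = 0.00502 by edgeR), a call that was lost without mock replicate 3 or 4 or GC7 replicate 1, 2 or 4 (adjusted p of 0.0117 to 0.0181), and Psme4 fell (-0.50, adjusted p = 0.000165 by edgeR). Of the assembly chaperones Psmg4 rose (0.61) and Psmg1 fell (-0.59), with adjusted p of 0.000233 and 5.69e-05 by edgeR.

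Per kilobase of exon, the range across the 10 genes was far wider than any change with GC7, while genes close in level differed by less. In mock-treated cells B2m was highest at 1544 ± 84.8 CPM per kilobase (SD, n = 4), followed by H2-D1 at 641 ± 56.0 and H2-K1 at 562 ± 47.6. Psmb8 came next at 127 ± 16.6, then Tap1 at 65.4, Tapbp at 50.8, Psmb9 at 50.0, Tap2 at 40.8, Psmb10 at 36.3 and Nlrc5 at 16.5 CPM per kilobase. The mock ranges of H2-D1 and H2-K1 overlapped. Tapbp and Psmb9, and Tap2 and Psmb10, did not differ beyond their spread. In GC7-treated cells H2-K1 (735 ± 47.2) stood above H2-D1 (646 ± 26.8), and Nlrc5 (29.2 ± 1.13) had drawn level with Psmb10 (29.0 ± 2.26). Exon length is the union of all annotated exons, so genes with long minor isoforms appear lower.

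The genes upstream of class I were read from a list of 23 transcription factors and interferon γ pathway genes, of which 22 were tested. Of these, 8 rose and 8 fell, so 72.7% passed in either direction, against 46.6% of all tested genes. Ifng, the gene of interferon γ, stood at 20.8, 21.4, 14.4 and 13.8 CPM in mock-treated and 54.1, 37.5, 46.1 and 38.8 CPM in GC7-treated cells. It rose with a log2 fold change of 1.32 (adjusted p = 1.81e-05 by edgeR). Of its receptor chains, Ifngr2 was at a low level, with 2.74 to 3.16 CPM in mock-treated and 6.47 to 8.16 CPM in GC7-treated cells, and it passed the filter only through the GC7 libraries, so that its levels are a description, although it is among the 8 counted as higher. The far more abundant chain Ifngr1 fell, from 353 ± 18.8 to 250.3 ± 16.6 CPM (SD, n = 4 each, log2 fold change -0.49, adjusted p = 5.11e-05 by edgeR). Irf1, which binds interferon elements of class I genes, rose with 0.46 (adjusted p = 0.00348 by edgeR), a call that was lost without mock replicate 1 or 3 or GC7 replicate 4 (adjusted p of 0.0120 to 0.0143).

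Jak1, the kinase bound to the IFNGR1 chain, also fell (log2 fold change -0.44, adjusted p = 0.000206 by edgeR), and both calls were kept in all 15 alternatives. Socs1, the feedback inhibitor of the pathway, fell (log2 fold change -0.38, adjusted p = 0.00398 by edgeR), and lost its call without GC7 replicate 2 or 3 and with library totals (adjusted p of 0.0113 to 0.0155). Of the RFX subunits that bind class I and class II promoters together with NLRC5 or CIITA, Rfxap fell from 34.4 to 40.6 CPM in mock-treated to 20.7 to 21.9 CPM in GC7-treated cells (-0.77, adjusted p = 2.64e-06 by edgeR), and Rfx5 did not pass (0.40, adjusted p = 0.0219 by edgeR). With a library left out, the value of Rfx5 ran from 0.25 to 0.46, and the gene passed in 1 of 15 alternatives. With library totals, 5 rather than 8 genes of the list fell.

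Of 30 interferon-inducible genes outside the class I pathway, 20 were tested, of which 13 rose, 3 fell and 4 did not pass, where 23% of all tested genes rose and 23.5% fell. Their median log2 fold change was 0.49, beside 0.02 for all tested genes. Of the 13, 2 (Mx1 and Iigp1) passed the filter only through the GC7 libraries, and their levels are given as a description. The count of 13 and the median of 0.49 include both. Without Mx1 and Iigp1 the median lies lower, between 0.34 and 0.42, the values of the middle genes. Mx1, an antiviral GTPase, stood at 1.12 to 1.86 CPM in mock-treated and 5.94 to 8.43 CPM in GC7-treated cells. Iigp1, an immunity-related GTPase, stood at 2.04 to 3.59 and 4.33 to 10.4 CPM. Gbp6, a guanylate-binding protein, stood at 21.3 to 30.2 CPM in mock-treated and 75.0 to 91.4 CPM in GC7-treated cells (1.69, adjusted p = 6.05e-08 by edgeR). Oas3, which makes the messenger that activates RNase L, moved the other way, from 41.4 to 54.1 CPM down to 8.60 to 12.5 CPM (-2.06, adjusted p = 3.40e-08 by edgeR).

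**Figure D4:**
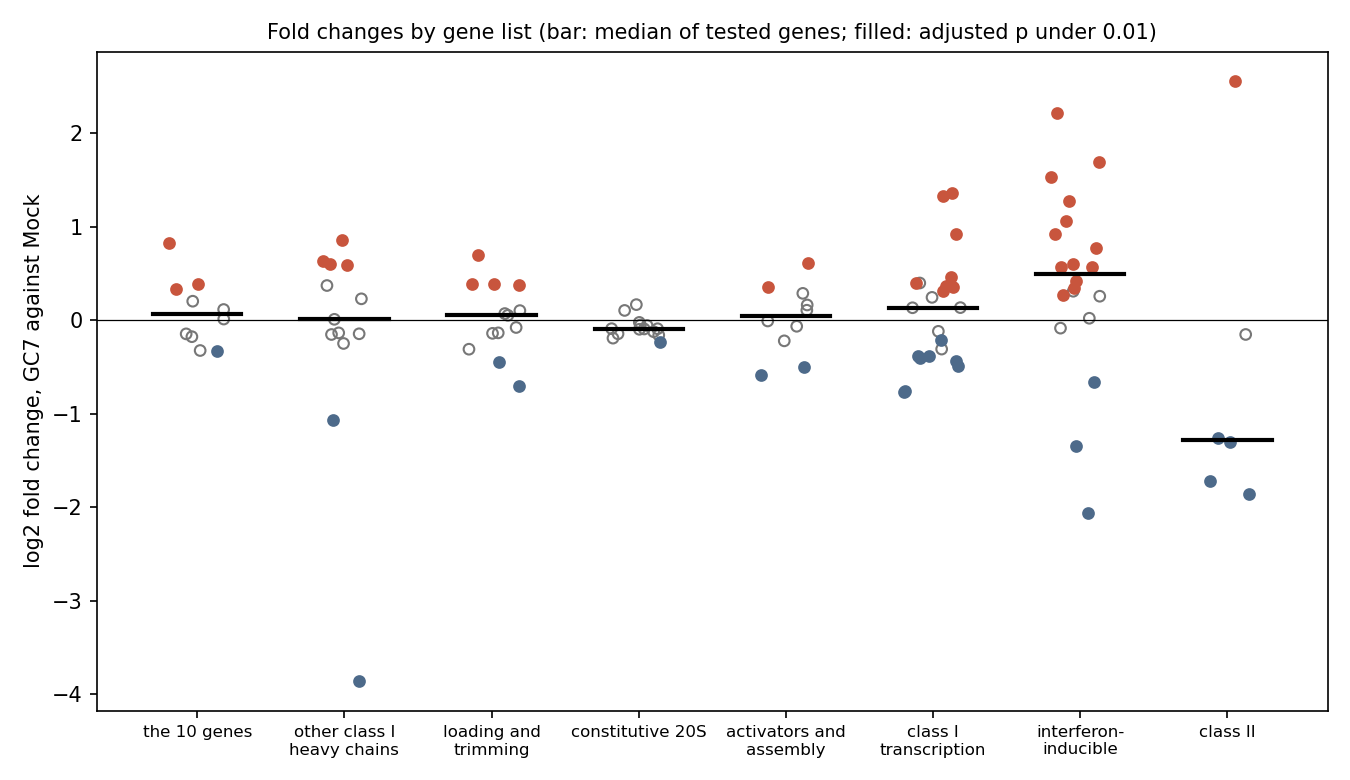
Log2 fold changes, GC7 against Mock, of all tested genes of 8 lists; filled points have an adjusted p under 0.01 (red higher, blue lower), open points do not, and the bar is the median. The 10 genes lie between -0.33 and 0.82, a narrower range than the interferon-inducible list, whose median is 0.49. That median includes Mx1 and Iigp1, which passed the filter only through the GC7 libraries, and lies between 0.34 and 0.42 without them.

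Of the 10 genes, 7 lie in the major histocompatibility region of chromosome 17. Between Tapbp and H2-M3, 101 genes were tested, of which 17 rose and 30 fell, with a median log2 fold change of -0.14. Among all tested genes, 23% rose and 23.5% fell, with a median of 0.02. Tap1, Psmb9, Psmb8 and Tap2 are neighbours, and their values ran from -0.33 to 0.11. B2m on chromosome 2 and Nlrc5 and Psmb10 on chromosome 8 lie outside this region.

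**Figure D5:**
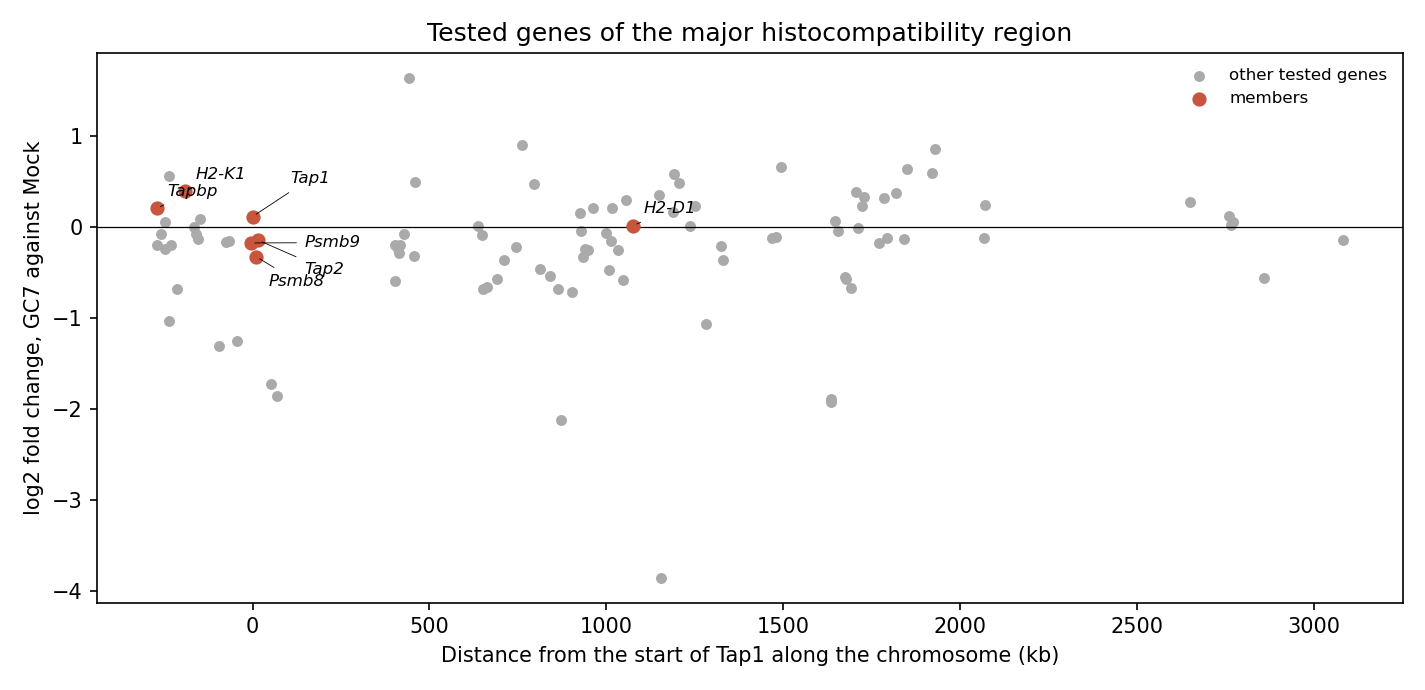
Log2 fold change, GC7 against Mock, of the 101 tested genes between Tapbp and H2-M3, by distance from the start of Tap1 in kilobases; red points are the 7 genes of the set that lie there and grey points the other genes. The set lies between -0.33 and 0.39, within the spread of its neighbours.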

How the data were processed

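Total RNA was extracted from 8 cultures, and its mRNA was sequenced. Paired-end reads were cleaned with Cutadapt by the authors, who aligned them to GRCm38 with STAR and deposited raw counts per Ensembl gene from featureCounts, 1 table per library, not normalised and not pooled. The strand setting and the handling of reads with several matches are not given in the sources used here. Groups and replicate numbers came from the labels, and the study describes the replicates as biological.

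A gene was kept if it exceeded 3 CPM in 4 or more libraries, and 3 CPM is 52.6 counts in the smallest and 75.9 in the largest library. Fold changes come from edgeR (version 4.0.16, R version 4.3.3) with TMM factors and a model of group alone; its quasi-likelihood test was adjusted by Benjamini-Hochberg across 11189 genes. With TMM, a shift shared by most genes is not visible. A gene was called at an adjusted p under 0.01. A ± value is the SD. The 4 planned ratios used a pseudocount of 0.5 CPM and two-sided exact permutation tests. For 2 ratios added after the values were seen (H2-K1 to H2-D1, Tap1 to Tap2), a permutation p was computed once and then left out, so the adjustment covers the 4 planned ratios alone. Alternatives were RLE factors, library totals, DESeq2 (version 1.42.0), limma-voom (limma version 3.58.1), filterByExpr, no filter, a replicate block and each library left out.

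The members and lists were chosen with earlier results of these data known. Named besides the 10 genes are, from each list, up to 4 genes with the largest change among those called and moving the same way in all 4 same-numbered pairs, the counterparts Psmb5, Psmb6 and Psmb7, Psme1 and Psme2, Ifng, Irf1, Rfx5 and Socs1, and the 5 genes most like Nlrc5. Some genes that this rule or the lists name are not reported here. Canx, Tapbpl, H2-Q4, H2-T-ps, H2-Q7, 9330175E14Rik, Zbtb22, H2-DMb2, Ifngr1, Jak1, H2-Eb1 and the genes that carry the marker sums were named after their values were seen. Shared reads were judged from 100-base windows of GENCODE transcripts (Python version 3.11.15). Intervals cover the spread between libraries, and counts come from reads without molecular identifiers.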

Additional observations from a re-analysis of the deposited data

Results flagged for a closer look

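In a group of 4, the gap of the highest or lowest library to its nearest neighbour was divided by the whole range and set against Dixon's critical value for 4 samples at the 95% level. Of 100 groups checked, 8 exceeded it, and chance gives about 1 in 20, or 5. In 6 of the 8, mock replicate 2 was the highest mock library. The ratio was 0.948 for Psmb8, 0.939 for Tap2, 0.920 for H2-D1 and 0.917 for Psmb10, and outside the set of 10 it was 0.903 for Psme2 and 0.857 for Psmb6. In the other 2, GC7 replicate 3 was the lowest GC7 library, with 0.884 for Oas3 and 0.870 for the log2 ratio of Psmb10 to Psmb7.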

How the results depend on the processing

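Nlrc5 and H2-K1 kept their calls under all 15 alternatives. The number of the 10 genes that rose was 2 to 4 and the number that fell 0 to 1 with a library left out; the latter was 0 with library totals and 2 with DESeq2 and without a filter. With library totals 3346 genes rose and 2058 fell, against 2579 and 2635 with TMM; the summed heavy chains passed (0.32), as with DESeq2 (0.22), and across left-out libraries they ran from 0.18 to 0.27. Library totals also gave 1 higher and 0 lower constitutive subunit, 5 lower transcription genes, 0.0034 for Psmb7 and 0.031 for Psme1. H2-D1 ran from -0.024 to 0.071 and Psme1 from -0.12 to 0.026 with a library left out. No filter and the block gave 0 lower constitutive subunits; left-out libraries gave 0 to 1 lower and 0 to 1 higher, 1 to 3 higher activators, 1 to 2 lower heavy chain genes and 0 to 1 higher class II genes, because Cd74 passes the filter only through 4 GC7 libraries. FilterByExpr and no filter gave 2 higher class II genes. No pairing of same-numbered libraries was evident, and the labels do not say whether they share a mouse (correlations of deviations 0.27, -0.12, 0.20 and -0.18; 2 of 4 mock libraries correlated best with their own number). With the replicate block, 2382 genes rose and 2485 fell, and no call among the 10 changed. Elsewhere the cause was not tested.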

Other observations

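Class II presentation genes, which share RFX factors with class I, ran from a log2 fold change of -1.85 (H2-Ab1) to 2.55 (Cd74). Of 10 on the list, 6 were tested, of which 4 fell (H2-Ab1, H2-Ob, H2-Oa and H2-DMb2) and 1 rose (Cd74). Among all tested genes, 23.5% fell and 23% rose. H2-Ab1, a class II β chain, stood at 133 to 179 CPM in mock-treated and 37.6 to 45.2 CPM in GC7-treated cells (log2 fold change -1.85, adjusted p = 2.77e-08 by edgeR), while H2-Aa had at most 10 counts in every library. H2-Eb1, another class II β chain, did not pass the filter on low counts and had 4, 9, 6 and 6 counts in mock-treated and 37, 36, 66 and 84 counts in GC7-treated libraries. H2-Ob and H2-Oa, which form the modulator H2-O of class II loading, fell with -1.72 and -1.30 (adjusted p for H2-Oa = 9.81e-06 by edgeR). Cd74, the invariant chain, stood at 1.65 to 2.41 CPM in mock-treated and 11.4 to 13.3 CPM in GC7-treated cells (2.55). It passed the filter on low counts only through the GC7 libraries, and H2-Ob only through the mock libraries, and the counts above include both. The B cell list was lower in GC7-treated libraries as well, at 268 to 293 against 457 to 572 CPM in sum, and its part in these values was not tested.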
